A study of Mus musculus with 6 samples.

Results

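Celsr1, Celsr2 and Celsr3 make up the mouse Celsr family of atypical cadherins, large cell-surface proteins whose cadherin repeats face the outside of the cell and whose membrane-spanning part resembles that of an adhesion G protein-coupled receptor. The family was taken whole, by gene name, with earlier results of these data known, and makes up 3 of the 24841 genes measured. They were followed through 48834 nuclei from dissected, frozen striatum, the input nucleus of the basal ganglia, of wild-type mice and of mice labelled Celsr3 heterozygous, with 3 biological replicates per genotype and 1 droplet-based 3′ single-nucleus RNA library per replicate. The labels give the genotype and the tissue of each library but not the altered allele, the strain, the sex or the age, and none of the groups is described as treated. Whether the sequenced 3′ ends of Celsr3 transcripts lie outside the altered part of the gene is therefore not known here. The questions were which cell classes hold each Celsr gene, and whether Celsr1 or Celsr2 differed between genotypes where Celsr3 was low.

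Celsr proteins are the vertebrate relatives of Flamingo (Starry night), a core component of planar cell polarity, the pathway by which neighbouring cells align to each other within a tissue. They bind like proteins on the facing cell and work with Frizzled receptors, Vangl proteins and the cytoplasmic Prickle and Dishevelled proteins. In the brain Celsr1 is known for neuroepithelium and for the orientation of ependymal cilia, Celsr2 for ependymal cilia, dendrites and motor neuron migration, and Celsr3 for the guidance of long axon tracts and interneuron migration in developing neurons. Medium spiny neurons, the projection neurons of the striatum, fall into D1 neurons of the direct pathway and D2 neurons of the indirect pathway.

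In mouse build GRCm38 with the GENCODE M21 annotation, Celsr1 lies on the minus strand of chromosome 15 from 85898929 to 86033777, Celsr2 on the minus strand of chromosome 3 from 108390851 to 108415552, and Celsr3 on the plus strand of chromosome 9 from 108826320 to 108852969. Their transcripts with the longest coding sequence have 35, 34 and 36 exons in that order. No other annotated gene overlaps Celsr1 or Celsr2, and the 1 that overlaps Celsr3 is a predicted 86-base microRNA gene, Gm23156, on the same strand, which has no row in the expression table.

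The libraries held 7735, 7890 and 8081 wild-type nuclei and 7890, 8363 and 8875 heterozygous nuclei, with a median of 2456 to 3011 genes detected per nucleus, lowest in wild-type replicate 1. Barcode sequences found in more than 1 library numbered 274. After 919 likely doublets were left out, 47915 nuclei were grouped into 17 marker-named classes and several unnamed clusters, and 14 classes had at least 20 nuclei in every library. Recovery was uneven for some kinds of nuclei: choroid plexus-like nuclei were absent from 3 libraries, heterozygous replicate 1 had no nuclei of unnamed clusters 23 and 25, and glutamatergic nuclei ranged from 204 to 1543 per library. Levels below are the mean deposited value per nucleus, a depth-corrected whole-number UMI value, and are compared between classes and genotypes but not between genes. Levels and percentages given for a genotype are unweighted averages over its libraries. Differences between genotypes are log2 of the mean value plus 0.01, heterozygous minus wild type, tested with limma over all genes of a population with Benjamini-Hochberg adjustment at 0.05. Since the labels do not say that each replicate is a separate animal, p-values measure the spread between these samples.

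Celsr1 was concentrated in ependymal-like and astrocyte-like nuclei. In ependymal-like nuclei, the ciliated cells that line the ventricles, its level was 1.0 in each of the 3 wild-type libraries, which held only 31, 13 and 13 such nuclei, and 1.1, 0.789 and 0.688 in the heterozygous libraries. The share of ependymal-like nuclei with a value of at least 1 averaged 60.8% over the wild-type libraries and 50.6% over the heterozygous ones. Astrocyte-like nuclei were next, with wild-type levels of 0.174, 0.152 and 0.119. Neuroblast-like nuclei, immature neurons and dividing precursors, followed at 0.0724 ± 0.024 (SD, n = 3). These 3 classes kept the order ependymal over astrocyte over neuroblast in all 6 libraries. The remaining classes present in every library lay at or below 0.035 in the wild-type mean and could not be ranked, since neighbours changed places between libraries. Choroid plexus-like nuclei, not present in every library, had 0.0159 and 0.102 in wild-type replicates 1 and 2 and 0.064 in heterozygous replicate 3. These levels came from 63, 49 and 125 nuclei, and 0.102 was above the neuroblast-like level of the same library, 0.0805. D1 and D2 MSN-like nuclei were at 0.00747 ± 0.00093 and 0.00591 ± 0.0028 (SD, n = 3), so the astrocyte-like level was 19.9-fold that of D1 MSN-like nuclei. Cholinergic interneuron-like nuclei had no Celsr1 value in 103 wild-type nuclei, which allows a share of up to 2.91% by counting error alone. Because astrocytes are far more numerous than ependymal cells, 63.2% of all wild-type Celsr1 signal came from astrocyte-like nuclei, which were 10.8% of nuclei, and 9.27% came from ependymal-like nuclei, which were 0.246% of nuclei.

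**Figure D1:**
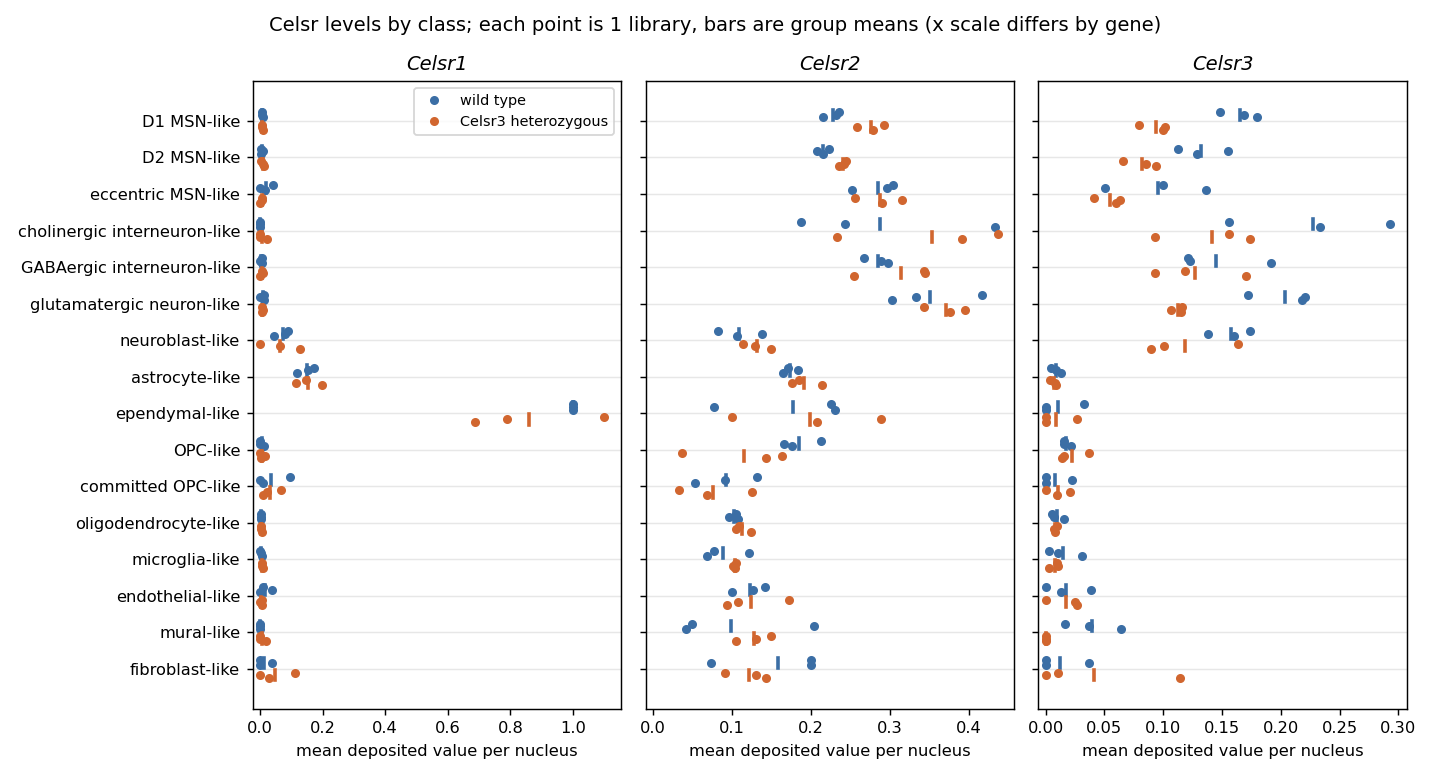
Mean deposited value per nucleus (x axes, a separate scale for each gene) of Celsr1, Celsr2 and Celsr3 in 16 classes, with 1 point per library and bars for the means of the 3 wild-type (blue) and 3 Celsr3 heterozygous (orange) libraries. Celsr1 stands out in ependymal-like nuclei at about 1.0, Celsr2 has values in every class, and Celsr3 is high in neurons and neuroblasts and near 0 in glia.

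Astrocyte-like nuclei were not uniform for Celsr1. They formed 3 clusters, built without any Celsr gene among the 2000 variable genes, and the wild-type Celsr1 level in cluster 4 was 10.4-fold that in cluster 9, and in cluster 20 2.96-fold that in cluster 4. In cluster 9, led by Agt, Slc6a11 and Etnppl, the wild-type levels were 0.00746, 0.0256 and 0.00687. In cluster 4, led by Gldc and Grin2c, they were 0.147, 0.142 and 0.129. In cluster 20, led by Thbs4, Tnc, Gfap and Myoc, they were 0.471, 0.364 and 0.402, and Celsr1 was itself among the 10 genes with the highest fold in that cluster. Gfap encodes the intermediate filament of fibrous and reactive astrocytes, Agt angiotensinogen and Slc6a11 a GABA transporter. Libraries did not overlap between the clusters, in either genotype: the highest value of cluster 9 was 0.0256 and the lowest of cluster 4 was 0.11, while the highest of cluster 4 was 0.173 and the lowest of cluster 20 was 0.364. Median genes detected were nearly alike, 1986, 2056 and 2014 per nucleus in clusters 9, 4 and 20. Celsr2 did not share this pattern, with wild-type means of 0.187, 0.151 and 0.227 in the same order of clusters. Since the clusters come from the same nuclei, these contrasts are a description and carry no test.

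**Figure D2:**
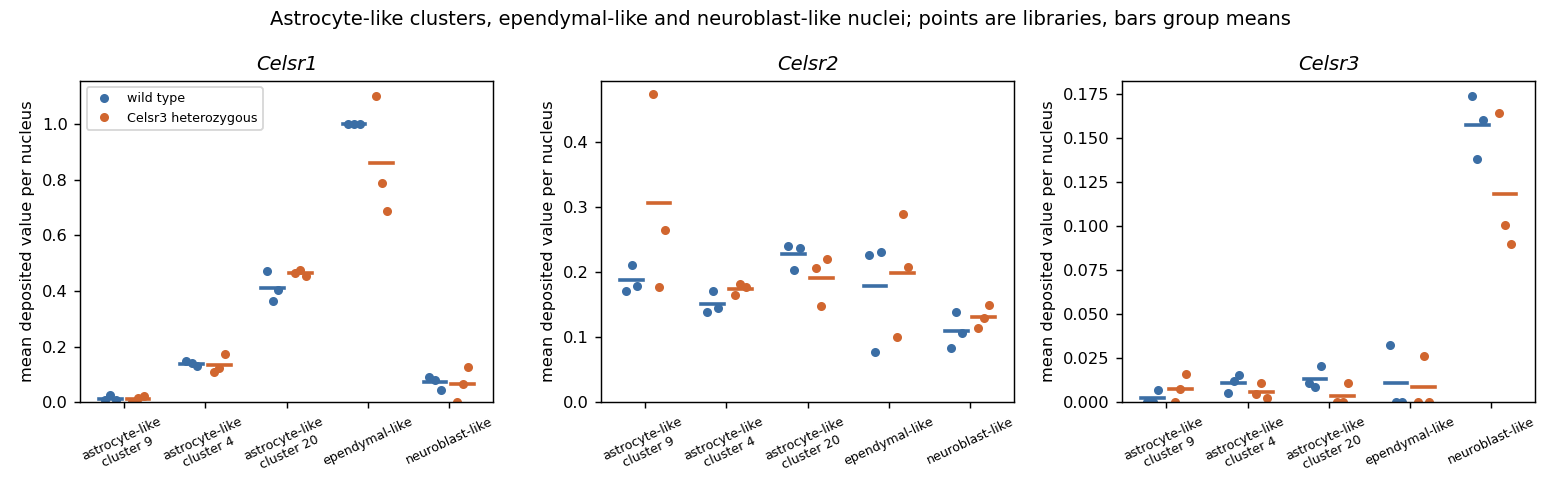
Mean deposited value per nucleus of each Celsr gene (a panel each) in the 3 astrocyte-like clusters, ependymal-like nuclei and neuroblast-like nuclei; points are libraries and bars are means of 3 wild-type (blue) or 3 heterozygous (orange) libraries. Celsr1 steps up from cluster 9 to cluster 4 to cluster 20 to ependymal-like nuclei, with wild-type means of 0.0133, 0.139, 0.412 and 1.0, while Celsr3 is high in this set only in neuroblast-like nuclei.

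Celsr2 values were found in nuclei of every class, with higher class means in mature neurons than in glia, where most levels lay within the free-RNA background described below. The wild-type mean was highest in glutamatergic neuron-like nuclei, at 0.417, 0.333 and 0.302, but exceeded that of cholinergic interneuron-like nuclei in only 3 of 6 libraries. Cholinergic (0.288 ± 0.13), GABAergic (0.285 ± 0.016) and eccentric MSN-like nuclei (0.285 ± 0.028; SD, n = 3 each), the last an Otof and Casz1 type of medium spiny neuron, did not differ from each other beyond their spread. D1 MSN-like nuclei were at 0.236, 0.232 and 0.215 and D2 MSN-like nuclei at 0.223, 0.208 and 0.215. The D1 level was above the D2 level in 5 of 6 libraries. Glutamatergic nuclei exceeded D1 MSN-like nuclei 1.54-fold, in 6 of 6 libraries. Below the neurons came oligodendrocyte precursor (OPC)-like nuclei at 0.185 ± 0.024, ependymal-like at 0.178 ± 0.087 and astrocyte-like nuclei at 0.174 ± 0.0095 (SD, n = 3 each), which could not be separated. The lowest levels were in oligodendrocyte-like (0.103 ± 0.0063), mural-like (0.0988 ± 0.091), committed oligodendrocyte precursor-like (0.0921 ± 0.039) and microglia-like nuclei (0.0889 ± 0.028; SD, n = 3 each), again without a clear order. The wild-type level in D1 MSN-like nuclei was 2.20-fold that in oligodendrocyte-like nuclei. Astrocyte-like nuclei carried 9.29% of the wild-type Celsr2 signal and D1 and D2 MSN-like nuclei 20.1% and 17.1%, against 10.8% of nuclei for the first and 17.6% for D1.

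Celsr3 was found in neurons and neuroblasts and was near 0 elsewhere. Cholinergic interneuron-like nuclei had wild-type levels of 0.156, 0.293 and 0.233, from 30 to 41 nuclei per library. Glutamatergic neuron-like nuclei were at 0.172, 0.221 and 0.218, and D1 MSN-like nuclei at 0.148, 0.169 and 0.18. Glutamatergic levels exceeded D1 levels in 6 of 6 libraries, by 1.23-fold in the wild type, whereas the order of cholinergic and glutamatergic nuclei held in 4. Neuroblast-like nuclei had 0.174, 0.138 and 0.16, not separable from D1 MSN-like nuclei or from GABAergic interneuron-like nuclei at 0.121, 0.123 and 0.191. D2 MSN-like nuclei had 0.113, 0.155 and 0.129, below the D1 level in 6 of 6 libraries with a wild-type ratio of 1.25. Eccentric MSN-like nuclei, at 0.0994, 0.0507 and 0.136, had the lowest mean of the neurons, and the D1 level was 1.73-fold theirs. Every glial and vascular class had a wild-type mean of 0.0392 or less, and the D1 MSN-like level was 18.4-fold the astrocyte-like and 17.2-fold the oligodendrocyte-like level. These ratios are rough, since the glial levels can include free RNA and varied between libraries. They ran from 0.0047 to 0.0131 in wild-type astrocyte-like and from 0.0053 to 0.0159 in wild-type oligodendrocyte-like nuclei. The share of nuclei with a value of at least 1 was 15.7% in wild-type D1 MSN-like nuclei, where a median of 3390 genes was detected, and 0.851% in oligodendrocyte-like nuclei, with a median of 1876. The named D1 and D2 classes held 31.0% and 22.9% of the wild-type Celsr3 signal.

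Droplets can also hold free RNA from broken cells, so the glial levels were set beside those of 9 genes abundant in neurons (Ppp1r1b, Rgs9, Pde10a, Adcy5, Penk, Meg3, Snhg11, Snap25 and Syt1). Over the 6 libraries, oligodendrocyte-like nuclei had a median of 21.1% of the MSN level of these genes, with a range from 9.44% for Rgs9 to 55.5% for Snap25. Celsr3 in oligodendrocyte-like nuclei was at 7.99% of its MSN level, below all 9. It was also below all 9 in microglia-like (9.26%), astrocyte-like (6.77%), endothelial-like (14.3%) and mural-like nuclei (12.8%). In OPC-like nuclei, at 19.4%, it was above 1 of the 9, and in committed precursors, at 7.70%, above 2. Glial Celsr3 lay at or below this background and is not read as expression. Celsr2 was at 44.9% of its MSN level in oligodendrocyte-like nuclei and at 39.9% in microglia-like nuclei, within the range of the list, and those levels cannot be told apart from free RNA. The same holds for endothelial-like (51.3%), mural-like (46.9%), OPC-like (64.0%) and committed precursor-like nuclei (35.3%). In astrocyte-like nuclei Celsr2 was at 75.9% of the MSN level, above the highest of the 9 genes, Ppp1r1b (59.7%). Over single libraries Celsr2 ranged from 67.8% to 83.4% and Ppp1r1b from 52.0% to 74.1%, so the ranges overlapped. Celsr1 in astrocyte-like nuclei was at 2307% of its MSN level.

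**Figure D3:**
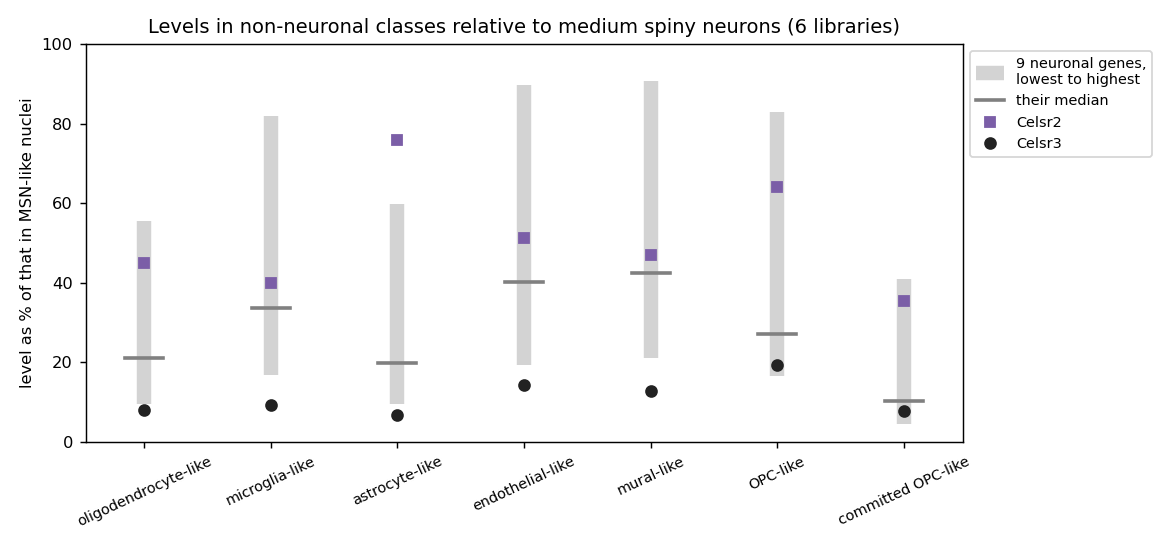
Level in 7 non-neuronal classes as a percentage of the level in D1 and D2 MSN-like nuclei, over 6 libraries, for Celsr2 (squares) and Celsr3 (circles); grey columns run from the lowest to the highest of 9 genes abundant in neurons and grey lines mark their median. Celsr3 lies below the whole column in 5 classes, and Celsr2 lies above it only in astrocyte-like nuclei.

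In D1, D2 and glutamatergic nuclei, Celsr2 and Celsr3 were found together about as often as their separate frequencies predict. In D1 MSN-like nuclei 235 nuclei held both genes against 231 expected within libraries, a ratio of 1.02, and in D2 MSN-like nuclei 154 against 149.5, a ratio of 1.03. Glutamatergic neuron-like nuclei gave 181 against 174.6. Over all nuclei the ratio was 1.41, and it was 1.04 when nuclei were compared only with others of like numbers of genes detected. GABAergic interneuron-like nuclei had 58 against 50.1, a ratio of 1.16 that ranged from 0.727 to 1.55 over libraries. Oligodendrocyte-like nuclei had 10 against 5.22, a ratio of 1.92 with a range from 0 to 2.58. Eccentric MSN-like nuclei had 29 nuclei against 20.5, a ratio of 1.42 that ranged from 1.19 to 1.75 over the 6 libraries and was 1.37 among nuclei of like numbers of genes detected. These 3 classes were singled out after their values were seen. Celsr1 and Celsr2 in astrocyte-like nuclei gave 86 nuclei against 84.2 expected.

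The genes whose wild-type levels were most like those of each Celsr gene were sought over the 14 classes among 13330 genes. Ependymal-like nuclei, the class with the highest Celsr1 level, were too few to be among the 14, so the Celsr1 values below do not cover them. These 14 points share libraries and free RNA, and the correlations are a description. Celsr1 was most like Gli1 (Pearson r = 0.89) and Gli2 (0.84), transcription factors of the Hedgehog pathway, Pax6 (0.83), a transcription factor of neural progenitors, and Veph1 (0.83). Celsr2 was most like Prr16 (0.97), Rapgefl1 (0.96), Rdh13 (0.94), Fbxo41 (0.94) and Ppfia3 (0.94), the last a liprin of the presynaptic active zone. Celsr3 was most like Crmp1 (0.97), a mediator of semaphorin signalling in axons, Cacna1b (0.96), the pore subunit of the N-type calcium channel, Ints1 (0.96), Fbxl19 (0.96) and Spink10 (0.96). Within the family, Celsr2 and Celsr3 had r = 0.71, while Celsr1 had -0.16 with Celsr2 and -0.23 with Celsr3. Over 27 clusters in place of classes, 2 of the 5 genes named for Celsr3 (Crmp1 and Cacna1b), 1 of those for Celsr2 (Rapgefl1) and 0 of the genes named for Celsr1 were again among the nearest 5, so the nearest genes of all 3 depend on how nuclei are grouped.

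Celsr3, the gene altered in the heterozygous mice, had lower values in these libraries in the 3 largest neuron classes, without passing the adjusted threshold. In D1 MSN-like nuclei the levels were 0.148, 0.169 and 0.18 in the wild type and 0.0794, 0.101 and 0.0997 in the heterozygotes. The groups did not overlap, and the mean of the heterozygotes was at 56.5% of that of the wild type. Complete separation in this direction was found for 5.11% of the 13429 genes tested in this class. The log2 difference was -0.76 ± 0.13 (SE; 95% interval -1.06 to -0.47; limma adjusted p = 0.127), with the 27th smallest p of the class, where 3 genes (0.0223%) passed the threshold. Leaving out wild-type replicate 1, the library with the fewest genes per nucleus and the lowest wild-type level, gave -0.84 with a limma adjusted p of 0.0234, and weighting the libraries by their quality gave -0.78 with 0.0124. Both call the gene, but leaving out the lowest wild-type library could only widen the estimate. The other alternatives, of 17 in all, did not call it, with limma adjusted p up to 0.483.

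In D2 MSN-like nuclei Celsr3 was at 0.113, 0.155 and 0.129 in the wild type and 0.0661, 0.0856 and 0.0935 in the heterozygotes. The groups again did not overlap, as for 5.54% of genes in this direction, and the difference was -0.63 ± 0.16 (SE; limma adjusted p = 0.289; 0.0157% of genes called). Glutamatergic neuron-like nuclei had 0.172, 0.221 and 0.218 against 0.116, 0.107 and 0.115, which did not overlap (4.74% of genes), with a difference of -0.80 ± 0.15 (SE; limma adjusted p = 0.683; 0.00798% called). The mean of the heterozygotes was at 55.2% of that of the wild type. The 4 glutamatergic clusters were unevenly filled, with cluster 16 holding 2 of the 523 nuclei of heterozygous replicate 3 and cluster 10 only 28 of the 225 of replicate 2. The levels of cluster 15 did not overlap, at 0.138, 0.208 and 0.238 against 0.105, 0.0678 and 0.0926 (5.21% of genes), and in cluster 10 the difference was -0.40 ± 0.28 (SE; limma adjusted p = 0.915). Clusters 0 and 5 of the D1 class gave -0.79 and -0.76, and clusters 3 and 6 of the D2 class -0.63 and -0.77. The remaining cluster of each class was too sparse for a test. In D2 cluster 11 the levels overlapped, at 0.0857, 0.151 and 0.11 in the wild type and 0.0763, 0.0836 and 0.112 in the heterozygotes, whose mean was at 78.4% of that of the wild type. In D1 cluster 13 the means were 0.143 and 0.0914, wild type first, at 64.0%.

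GABAergic interneuron-like nuclei had Celsr3 levels of 0.121, 0.123 and 0.191 in the wild type and 0.119, 0.0929 and 0.17 in the heterozygotes. The groups overlapped, and the difference was -0.19 ± 0.26 (SE; 95% interval -0.77 to 0.40; limma adjusted p = 0.974; 0% called), an interval that holds the D1 value as well as 0. Of its 3 clusters, the Vip, Kit and Lgr5 cluster 21 had means of 0.132 and 0.0991, the Crhbp and Kcnc2 cluster 24 had 0.173 and 0.181, and the Nos1, Sst and Npy cluster 30 had 0.134 and 0.160, wild type first. Heterozygous replicate 3 had the highest heterozygous level in each of these clusters. Classes too sparse for the filter gave values only: 0.227 and 0.141 in cholinergic, 0.0955 and 0.0549 in eccentric MSN-like and 0.157 and 0.118 in neuroblast-like nuclei, wild type first, all overlapping. In mural-like nuclei the groups did not overlap (3.33% of genes in this direction), but the gene was seen in 5 nuclei in all and in 0 of 143 heterozygous nuclei, which allows a share of up to 2.10%. A direct comparison of the differences gave -0.13 ± 0.12 (SE; limma adjusted p = 0.992) for D1 minus D2, 0.03 ± 0.15 (adjusted p = 0.999) for D1 minus glutamatergic and -0.58 ± 0.26 (adjusted p = 0.950) for D1 minus GABAergic nuclei. No difference between classes passed the threshold for Celsr3; over all genes 0%, 0% and 0.0114% did, in the same order.

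Over all nuclei Celsr3 was at 0.0746, 0.1 and 0.108 in the wild type and 0.0615, 0.0696 and 0.065 in the heterozygotes, without overlap (4.45% of 14396 genes). The difference was -0.46 ± 0.14 (SE; limma adjusted p = 0.456), and 0% of genes passed the threshold while 6.27% were higher and 3.63% lower at an unadjusted p under 0.05. The lowest wild-type value came from replicate 1, which held 1881 oligodendrocyte-like nuclei against 940 to 1533 in the other libraries. This replicate was also the lowest wild-type library within D1, D2, glutamatergic, GABAergic and cholinergic nuclei, but not within eccentric MSN-like or neuroblast-like nuclei. What made its level low was not tested. With every cluster given equal weight the difference was -0.46.

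**Figure D4:**
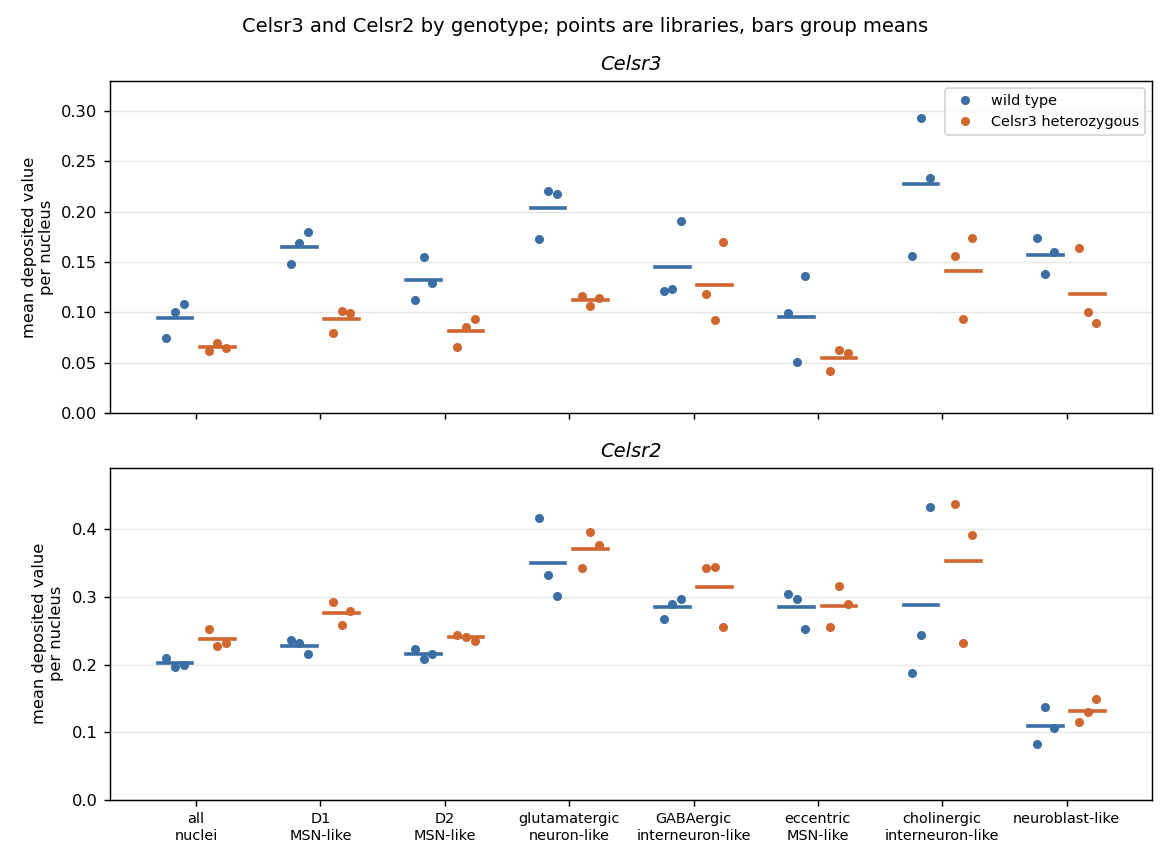
Mean deposited value per nucleus of Celsr3 (top) and Celsr2 (bottom) in all nuclei and in 7 neuronal classes; points are libraries and bars are means of 3 wild-type (blue) and 3 Celsr3 heterozygous (orange) libraries. For Celsr3 the genotypes separate in all nuclei, D1, D2 and glutamatergic nuclei, as for 4.45%, 5.11%, 5.54% and 4.74% of genes. For Celsr2 they separate the other way in all nuclei, D1 and D2 nuclei, as for 14.9%, 11.6% and 9.05% of genes. After size-factor scaling (not shown) this Celsr2 separation remained only in D1 nuclei.

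Celsr2 did not pass the threshold in any class, and its values were somewhat higher in the heterozygotes in D1 and D2 MSN-like nuclei. Eccentric MSN-like nuclei had means of 0.285 in the wild type and 0.287 in the heterozygotes, which overlapped. In D1 MSN-like nuclei it was at 0.236, 0.232 and 0.215 in the wild type and 0.293, 0.258 and 0.279 in the heterozygotes. Each heterozygous value exceeded each wild-type value, as for 11.6% of genes tested. The difference was 0.27 ± 0.09 (SE; 95% interval 0.06 to 0.48; limma adjusted p = 0.408). Clusters 0, 5 and 13 of this class gave 0.26, 0.22 and 0.32. D2 MSN-like nuclei had 0.223, 0.208 and 0.215 against 0.244, 0.241 and 0.235, again without overlap (9.05% of genes), with a difference of 0.15 ± 0.09 (SE; limma adjusted p = 0.694). The D1 minus D2 difference of these changes was 0.12 ± 0.07 (SE; limma adjusted p = 0.977). Glutamatergic neuron-like nuclei had 0.417, 0.333 and 0.302 against 0.343, 0.396 and 0.377, which overlapped, with a difference of 0.09 ± 0.14 (SE; 95% interval -0.24 to 0.42; limma adjusted p = 0.981).

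Over all nuclei Celsr2 was at 0.210, 0.196 and 0.2 in the wild type and 0.253, 0.227 and 0.232 in the heterozygotes, a difference of 0.22 ± 0.07 (SE; 95% interval 0.05 to 0.40; limma adjusted p = 0.463). Separation of this kind was common in this direction, at 14.9% of genes, and 69.2% of all genes had a higher heterozygous mean, with a median log2 difference of 0.07. Dividing each library by a size factor brought that median to 0.0050 and the Celsr2 differences to 0.16 over all nuclei and 0.22 in D1 MSN-like nuclei. After this scaling the genotypes overlapped for Celsr2 over all nuclei and in D2 MSN-like nuclei, and still did not overlap in D1 MSN-like nuclei (0.239, 0.237 and 0.220 against 0.306, 0.246 and 0.264), as for 6.66% of genes after scaling. Scaled Celsr3 values did not overlap in all nuclei, D1, D2 and glutamatergic nuclei, where 7.34%, 7.52%, 7.18% and 5.33% of genes separated in that direction, in this order. The all-nuclei Celsr2 level also depends on the share of each class. Oligodendrocyte-like nuclei, low in Celsr2, averaged 19.76% of wild-type nuclei (SD 4.337, n = 3) and 15.37% of heterozygous nuclei. Glutamatergic nuclei, the highest class, averaged 7.29% and 9.591%, and D2 MSN-like nuclei 16.02% and 13.78%, wild type first. How much of the all-nuclei Celsr2 difference came from such shares was not tested. In the 8 classes where Celsr2 was tested the estimate was above 0, between 0.01 and 0.27, and 0 of 8 were called, where 0% to 0.0223% of all genes were. Over the 18 clusters tested, 14 estimates were above 0 and 4 below. Of all genes tested, 49.8% to 65.0% were above 0 in these classes and 49.1% to 67.2% in these clusters. The clusters below 0 were astrocyte-like cluster 20 (-0.25), oligodendrocyte-like cluster 1 (-0.0058), unnamed cluster 7 (-0.14) and glutamatergic cluster 15 (-0.11). The glial class estimates, 0.13 ± 0.13 in astrocyte-like, 0.11 ± 0.13 in oligodendrocyte-like and 0.24 ± 0.26 (SE) in microglia-like nuclei, have intervals that include 0. In OPC-like nuclei, under the filter for a test, Celsr2 was at 0.213, 0.167 and 0.176 in the wild type and 0.0370, 0.164 and 0.144 in the heterozygotes. These unscaled values did not overlap in the lower direction (3.18% of genes), but the nearest, 0.167 and 0.164, were almost equal, and the lowest value rested on 27 nuclei.

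Celsr1 did not pass the threshold where it could be tested, over all nuclei and in astrocyte-like nuclei. In astrocyte-like nuclei it was at 0.174, 0.152 and 0.119 in the wild type and 0.148, 0.115 and 0.199 in the heterozygotes, which overlapped, with a difference of 0.03 ± 0.20 (SE; 95% interval -0.42 to 0.49; limma adjusted p = 0.991). Cluster 4 gave -0.06 ± 0.19 and cluster 20 gave 0.18 ± 0.21 (SE). Over all nuclei the levels were 0.0311, 0.0239 and 0.0214 against 0.0227, 0.0246 and 0.0399, a difference of 0.12 ± 0.19 (SE; limma adjusted p = 0.791). The highest value came from heterozygous replicate 3, the largest library, which held 268 nuclei of the Celsr1-high cluster 20 and 48 ependymal-like nuclei. The other libraries held 97 to 187 and 10 to 38. Replicate 3 was also the highest library within cluster 4, at 0.173 against 0.110 to 0.147, but not within cluster 20 or ependymal-like nuclei. What made its value high was not tested. Without heterozygous replicate 3 the difference was -0.07, and with every cluster given equal weight it was -0.09. Under the filter for a test, all heterozygous values exceeded the wild-type ones in oligodendrocyte-like cluster 1 (means 0.00398 against 0.000661) and unnamed cluster 12 (0.0218 against 0.0036), as for 6.40% and 6.34% of the genes tested there. These rest on 8 and 9 nuclei with a Celsr1 value in all 6 libraries.

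**Figure D5:**
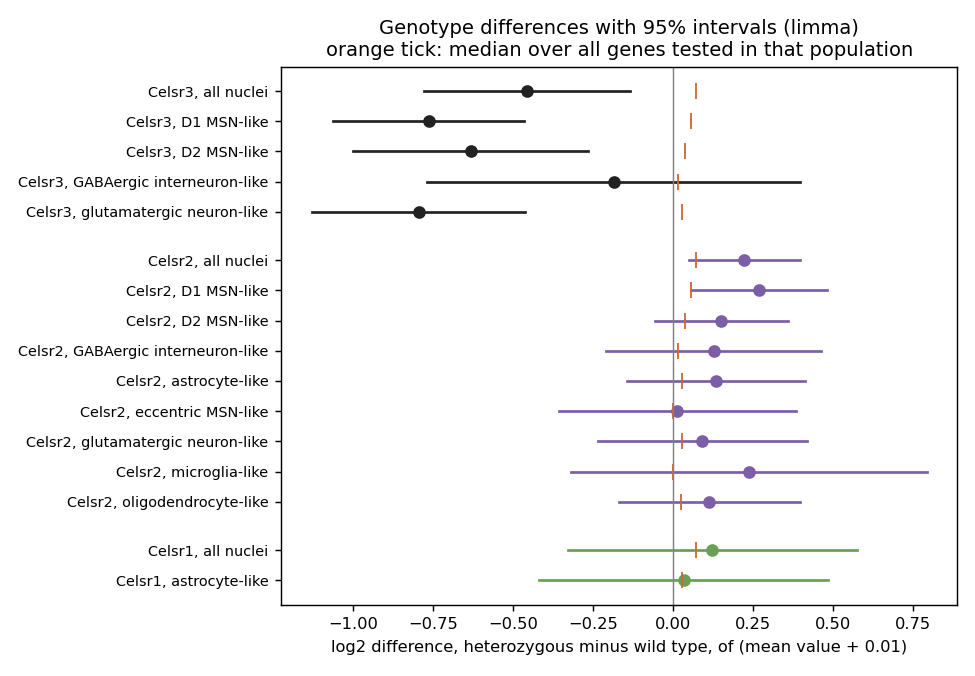
Log2 difference, heterozygous minus wild type, of the mean value plus 0.01 (x axis) with its 95% interval from limma for each Celsr gene in each population where it was tested; orange ticks mark the median difference over all genes tested in that population. Celsr3 lies between -0.80 and -0.19, Celsr2 between 0.01 and 0.27, and Celsr1 at 0.12 and 0.03 with intervals across 0.

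The log2 ratio of Celsr2 to Celsr3 in a library contains the Celsr3 difference itself, so it gives no separate evidence on Celsr2. It was higher in the heterozygotes by 1.03 in D1, 0.78 in D2 and 0.89 in glutamatergic nuclei and by 0.68 over all nuclei, the populations where Celsr3 alone did not overlap. The exact two-sided permutation p was 0.1 in each, the smallest that 3 against 3 libraries can give, or 0.15 adjusted over the 6 ratios tested. In GABAergic interneuron-like nuclei the ratio was higher by 0.31 (exact permutation p = 0.5), and Celsr1 relative to Celsr3 over all nuclei by 0.58 (exact permutation p = 0.3), both with overlap.

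A list of 18 planar cell polarity genes was set beside the Celsr genes, of which 17 could be tested over all nuclei and 3 to 17 in single classes. No test of a listed gene passed the threshold in these populations. In D1 MSN-like nuclei, where 0.0223% of all genes passed, 14 were tested, 11 had a higher heterozygous mean and 3 a lower one, 0 were called by limma and 2, both higher, had an unadjusted p under 0.05, as did 5.66% of all genes in the higher and 4.27% in the lower direction. Their median log2 difference was 0.09, beside 0.06 over all genes, of which 65.0% were higher. The smallest p-values belonged to Fzd3, the Frizzled receptor that shares axon-tract roles with Celsr3, at 0.27 ± 0.09 (SE; limma adjusted p = 0.396), Ryk, a Wnt receptor, at 0.22 ± 0.08 (adjusted p = 0.415), and Ankrd6 (Diversin), at 0.14 ± 0.07 (adjusted p = 0.552). In D2 MSN-like nuclei 8 of 13 were higher, beside 60.3% of all genes, with Fzd3 at 0.14 ± 0.10 and Ryk at 0.14 ± 0.09 (SE). Over all nuclei 14 of 17 were higher, beside 69.2% of all genes, and 3 had an unadjusted p under 0.05, as did 9.91% of all genes.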

How the data were processed

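Single-nucleus libraries were made from frozen striatum with a 10x 3′ kit, per the labels' protocols. Cell Ranger and Seurat 4.1 with build mm10 (GRCm38) are named in the submitters' processing notes; other steps are not given in the sources used here. The deposited table holds whole numbers whose totals per nucleus vary little (4523 to 10638, CV 10.7%), so the authors' values were taken as a depth-corrected score, not raw counts, and no count model was used; 10.0% of nuclei had 10 or more low genes at 2 or 3 and none at 1. Their sequencing depth is not known here. Members and lists were chosen with earlier results of these data known.

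Nuclei were clustered on 2000 variable genes (30 principal components, 15 neighbours, Leiden resolution 1.0; scanpy 1.11.5, igraph 0.11.9). Clusters were called "-like" from 19 marker lists: at least 3 markers with fold above 2 and mean above 0.1, and 60% of the list, or 40% with a marker in the top 10. A cluster that another list matched as well was left unnamed. These limits, the doublet score limit of 0.25 and the removal of 7 clusters with over 30% such nuclei were set after the clusters were seen. Names may differ from the study's. Cluster 39, led by genes of the macrophage list (Mrc1, F13a1 and Stab1), was among those removed. It held 102 nuclei, of which 37.3% were over the score limit, so no macrophage class is reported. The automatic doublet threshold marked 0.317% to 0.824% of nuclei per library and was not used.

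Means per library and class were tested with limma 3.58.1 (R 4.3.3) on log2(mean + 0.01), for genes with a mean of at least 0.02 and a summed value averaging at least 30 per library; this scale understates changes of low genes. The script was tested on simulated data. Differences between classes were tested in 1 model with library as a block. Genes named are the Celsr genes, the 3 polarity genes with the smallest p in D1 MSN-like nuclei (none passed) and the 5 genes most correlated with each Celsr gene. A neighbour of Celsr1 and a gene of the list used for free RNA are not reported here, and the list's values were computed without it. Alternatives were other pseudocounts, no filter, size factors, array weights, a replicate block, libraries left out, doublets kept, equal cluster weights, a genes-detected window, shares of nuclei and resolution 0.5; single clusters were added after seeing the data. Intervals and limits from 0 nuclei cover counting error only.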

Additional observations from a re-analysis of the deposited data

How the results depend on the processing

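Of 410 alternative values for 40 results, 387 were counted as unchanged. For genotype differences this meant the same direction and side of the threshold. For ratios of levels between classes it meant a move smaller than the SD over wild-type libraries. Some ratios moved further when taken as shares of nuclei. For Celsr1, cluster 20 over cluster 4 went from 2.96 to 2.42 and ependymal-like over astrocyte-like nuclei from 6.73 to 5.3. For Celsr2, D1 MSN-like over oligodendrocyte-like nuclei went from 2.2 to 2.69. The permutation tests of ratios to Celsr3 could not change side, since their smallest possible p is 0.1. Celsr3 in D1 MSN-like nuclei was called with array weights (-0.78, limma adjusted p = 0.0124) and ranged from -0.84 to -0.66 with 1 library left out. A pseudocount of 0.1 shrank the Celsr3 differences to -0.46 in D1, -0.35 in D2, -0.51 in glutamatergic and -0.23 in all nuclei, with no change of call. The adjusted p in D1 MSN-like nuclei ranged from 0.0124 to 0.483 over the alternatives. Celsr1 over all nuclei reversed with equal cluster weights (-0.087). With 1 library left out, direction reversed with no call for 6 results, with these ranges: Celsr1 over all nuclei -0.066 to 0.24, Celsr3 in GABAergic interneuron-like nuclei -0.40 to 0.0030, Celsr1 in astrocyte-like nuclei -0.16 to 0.21, Celsr2 in eccentric MSN-like nuclei -0.068 to 0.091, Celsr2 in glutamatergic neuron-like nuclei -0.0073 to 0.22, and the D1 minus glutamatergic difference of Celsr3 -0.059 to 0.15. Celsr1 in astrocyte-like nuclei was -0.00028 as a share of nuclei and -0.061 in cluster 4 alone, and Celsr2 was -0.11 in glutamatergic cluster 15 and -0.25 in astrocyte-like cluster 20. The cause was not tested.

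The labels do not say whether replicate numbers pair the libraries. Deviations of same-numbered libraries had correlations of -0.041, 0.14 and -0.072, within the range of differently numbered ones, -0.149 to 0.184. These few correlations cannot settle whether same-numbered libraries were prepared together. With a replicate block Celsr3 was at -0.76 (limma adjusted p = 0.0791) in D1, -0.63 (0.133) in D2 and -0.46 (0.495) in all nuclei, and Celsr2 at 0.27 (0.345), 0.15 (0.616) and 0.22 (0.495). The block changed no call. Low values limited what could be tested: of 14 classes, Celsr1 passed the filter in 1, Celsr2 in 8 and Celsr3 in 4.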

Other observations

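Some clusters that the marker lists left unnamed held high Celsr levels, and they were singled out after their values were seen. Cluster 23, led by Trpm6, Lhx9, Lef1 and Shox2, had the highest wild-type Celsr3 mean of the populations named here, 0.303 ± 0.10 (SD, n = 3), with 0.189, 0.373 and 0.347 in the wild type. Heterozygous replicates 2 and 3 had 0.216 and 0.168, which overlapped, and replicate 1 had no such nuclei. Cluster 27, led by Lhx8, had 0.182 ± 0.038 for Celsr3 and 0.358 ± 0.020 for Celsr2 (SD, n = 3) in the wild type. In cluster 7, led by Baiap3, Zim1 and Prlr, Celsr3 was at 0.148, 0.198 and 0.178 in the wild type and 0.103, 0.135 and 0.133 in the heterozygotes, while Celsr2 overlapped between genotypes. The Celsr3 groups did not overlap, as for 6.18% of 10931 genes in this direction, and the log2 difference was -0.46 ± 0.20 (SE; limma adjusted p = 0.792).

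Cluster 12, led by Pmch, had a Celsr2 level of 0.367 ± 0.074 (SD, n = 3) in the wild type, from 14.1% of nuclei. Single nuclei reached a value of 8, with a median of 1722 genes detected. D1 MSN-like nuclei reached their lower level of 0.228 with a value in 20.8% of nuclei.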
